A study of Mus musculus with 19 samples.

Results

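The excision, mismatch and end-joining repair genes are 42 mouse genes, listed by symbol, whose products mend damaged or mispaired bases, remove bulky lesions or rejoin broken DNA. The list holds 5 genes of mismatch repair, 12 of nucleotide excision repair, 10 DNA glycosylases, 6 core genes of base excision and single-strand break repair, 1 gene of direct reversal and 8 of end joining. Probe annotation found 40 of the 42 on the arrays, each read by the probe set with the highest mean signal, out of 18193 genes in all. Tdg, a glycosylase for thymine opposite guanine, has only probe sets shared with other symbols, and Dclre1c, the Artemis nuclease of end joining, was not analysed here. Of the 40, 38 were bright enough to be tested, among 12148 genes tested.

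The study compared tumors of the cerebellum that start from 2 kinds of progenitor with those progenitors, on 19 Affymetrix Mouse430+2 arrays in 5 groups, all of strain C57BL/6. NEP tumor (4 arrays) denotes tumor cells of Nestin-CreERT2/Ptch1C/C mice, and GNP tumor (4 arrays) those of Math1-CreERT2/Ptch1C/C mice, in which a Cre made under the Nestin or the Math1 promoter targets Ptch1, the receptor that holds Hedgehog signalling in check. NEP (4 arrays) denotes Nestin+ progenitors, GNP (4 arrays) Math1+ progenitors and NSC (3 arrays) CD133+, Lin- cerebellar progenitors. The cells came straight from the cerebellum with no culture and no treatment named. The labels give no age and do not say whether arrays came from separate animals, so p-values measure only the spread between these arrays.

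The label genes were checked on each group. Nes, which encodes Nestin, averaged 6.21 ± 0.79 in NEP tumor, 5.27 ± 0.11 in GNP tumor, 5.87 ± 0.19 in NEP, 3.49 ± 0.35 in GNP and 4.47 ± 0.12 in NSC (log2 signal, SD). Atoh1, which encodes Math1, had a mean log2 signal of 10.47 ± 0.15 in NEP tumor, 9.43 ± 0.03 in GNP tumor, 3.95 ± 1.59 in NEP, 8.85 ± 0.09 in GNP and 8.93 ± 0.01 in NSC (SD, n = 4 each, 3 for NSC). The NSC arrays thus had an Atoh1 signal close to that of GNP. Prom1, which encodes CD133, averaged 6.86 ± 0.13 in NEP tumor, 5.85 ± 0.17 in GNP tumor, 8.61 ± 0.30 in NEP, 7.24 ± 0.17 in GNP and 8.08 ± 0.11 in NSC. The Ptch1 probe set averaged 11.46 ± 0.09, 11.21 ± 0.04, 10.52 ± 0.29, 10.28 ± 0.09 and 10.26 ± 0.03 in the same groups, higher in both tumors, and whether it lies in the deleted stretch is not known here. NEP arrays 1 and 2 stood apart from NEP arrays 3 and 4. Their 12 microglia and macrophage markers had medians of 9.38 and 9.47, against 4.44 and 2.37 on NEP arrays 3 and 4, 4.11 to 5.45 in NEP tumor, 5.54 to 5.91 in GNP tumor, 1.88 to 2.24 in GNP and 4.15 to 4.61 in NSC. The summed signal of that list ran from 6.20 to 13.27 (log2) in NEP with 5 to 12 of the 12 markers at or above the array median, and from 5.65 to 5.83 in GNP with 1 to 3. For 8 pericyte, fibroblast and meningeal markers it ran from 10.32 to 13.73 in NEP and from 5.94 to 7.21 in GNP. Called differences between NEP and GNP, and counts of calls that rest on NEP, are therefore also given for NEP arrays 3 and 4 alone. These 2 arrays are not a cleaned NEP set. Their medians of 8 differentiating neuron markers were 8.62 and 8.07, against 6.24 and 6.40 on NEP arrays 1 and 2 and 10.18 to 10.25 in GNP. Their pericyte, fibroblast and meningeal sums, 11.03 and 10.32, still exceeded GNP. What this does to their smaller or larger differences was not tested. Array titles place NEP and GNP in a first numbered series and NSC and both tumors in a second, so series and group cannot be told apart in any comparison of tumors with progenitors or with NSC.

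Mismatch repair removes bases misplaced by replication: Msh6 and Msh3 take part in finding the mismatch, Pms2 and Mlh3 in nicking the new strand, and Exo1 digests it. Base excision repair starts with a glycosylase that cuts out 1 damaged base and ends with gap filling and ligation, while nucleotide excision repair lifts out a short stretch around a bulky lesion. Classical end joining holds broken ends with the Ku pair and seals them with the Xrcc4 and Lig4 ligase. Granule neuron progenitors divide rapidly after birth, and loss of mismatch or end-joining factors is known to predispose mice to tumors.

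Promoter sequences are shown for 4 members that had an entry in the RefSeq table (GRCm38.p6): Xrcc5 (chr1:72307171-72307420, plus strand), Mbd4 (chr6:115853342-115853591, minus strand), Msh6 (chr17:87974800-87975049, plus strand) and Neil3 (chr8:53639066-53639315, minus strand). They were ranked by the largest absolute value among the NEP minus GNP difference, the tumor difference and the tumor difference less the progenitor difference. Xrcc5, Mbd4 and Msh6 ranked by the last of these, at 1.47, 1.27 and 1.26. Each is the 250 bases before the annotated start, written along the gene's own strand. Capitals mark matches, on either strand, to CCAAT, to the GC box GGGCGG or to the E2F-type sites TTTGGCGC, TTTCGCGC, TTTCCCGC and TTTGCCGC. Overlapping matches were counted.
Xrcc5: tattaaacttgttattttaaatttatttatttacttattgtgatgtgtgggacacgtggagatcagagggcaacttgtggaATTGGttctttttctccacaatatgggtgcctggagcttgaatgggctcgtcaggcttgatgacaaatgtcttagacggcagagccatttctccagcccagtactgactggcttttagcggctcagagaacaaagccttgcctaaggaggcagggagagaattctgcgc
Mbd4: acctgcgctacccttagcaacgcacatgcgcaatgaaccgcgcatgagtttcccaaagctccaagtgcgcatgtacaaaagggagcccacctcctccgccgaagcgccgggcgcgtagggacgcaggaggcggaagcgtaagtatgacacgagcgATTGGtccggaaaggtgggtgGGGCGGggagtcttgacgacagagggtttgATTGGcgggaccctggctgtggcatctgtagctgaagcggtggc
Msh6: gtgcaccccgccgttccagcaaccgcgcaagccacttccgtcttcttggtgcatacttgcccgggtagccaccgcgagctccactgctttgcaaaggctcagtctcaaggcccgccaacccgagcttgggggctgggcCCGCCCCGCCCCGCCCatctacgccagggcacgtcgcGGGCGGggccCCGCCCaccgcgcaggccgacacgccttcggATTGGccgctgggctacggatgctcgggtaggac
Neil3: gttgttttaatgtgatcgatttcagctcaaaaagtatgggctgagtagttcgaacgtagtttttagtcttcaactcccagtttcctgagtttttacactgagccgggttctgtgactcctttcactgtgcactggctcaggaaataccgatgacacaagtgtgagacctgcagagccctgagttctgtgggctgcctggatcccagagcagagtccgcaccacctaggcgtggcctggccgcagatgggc
The Xrcc5 stretch held 1 CCAAT match, 169 bases before the start, and no GC box. Mbd4 held CCAAT matches 95 and 44 bases before the start around a GC box at 74. Msh6 held a run of GC boxes from 112 to 65 bases before the start and a CCAAT match at 34. Neil3 had no match to these letters in this window. Of 36 members with a promoter entry, 20 held CCAAT and 25 a GC box, against 33.8% and 32.7% of 32851 promoters in the table. The E2F-type sites stood in 3 members, Msh3, Nthl1 and Xrcc6, and in 1.86% of all promoters. Among members with an entry, a GC box stood in 14 of the 17 called lower in NEP than in GNP and in 6 of the 12 not called, and CCAAT in 9 of 17 and 7 of 12. A member counted if any of its promoter entries held the match, while the shares over all promoters are per entry. The counts of members and those shares are therefore not like for like, and they tend to favour the members. Base composition also differs between promoters and was not matched, so all of this is a description.

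**Figure D1:**
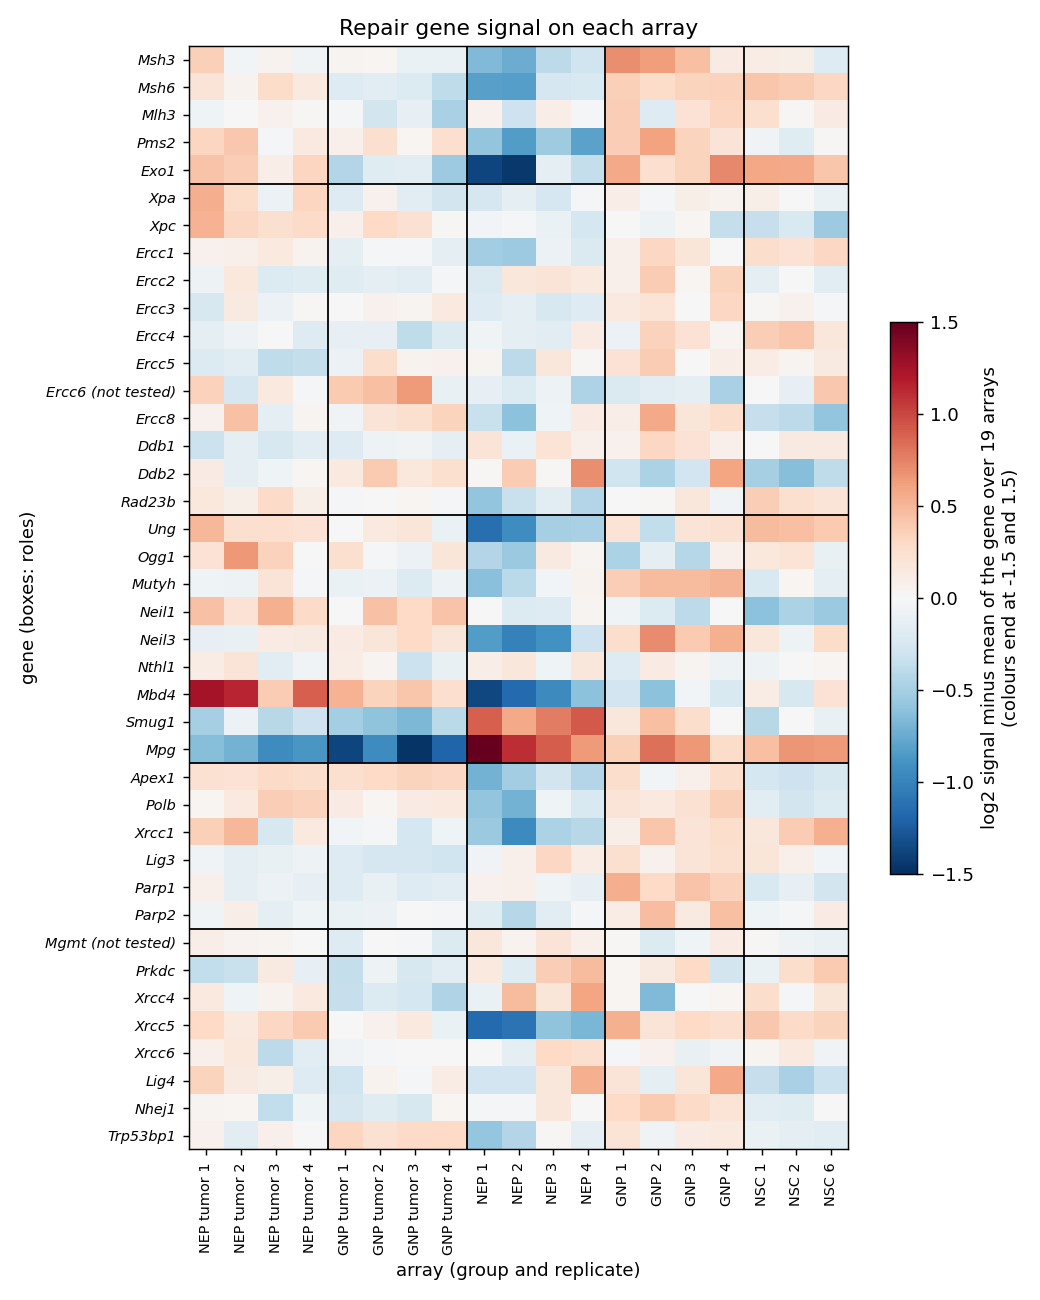
Log2 signal of the 40 measured repair genes on each of the 19 arrays (columns, by group and replicate), minus the gene's mean over all arrays, with boxes for the roles. Most rows of mismatch repair and base excision core genes are lowest (blue) on the 4 NEP arrays.

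In NEP against GNP, the comparison within 1 title series that asks how the progenitors differ, the repair genes were mostly lower in NEP. Of the 38 tested, 20 were lower, 3 higher and 15 not called (limma, adjusted p under 0.05), and the median log2 difference was -0.31 where that of all tested genes was -0.11. Over all 12148 genes, 69.5% were called (39.9% lower and 29.6% higher), so a call as such was common. Among the members 52.6% were lower and 7.89% higher. Lower signal in such bulk RNA can come from fewer cells of a type or from less RNA per cell, which cannot be told apart. With NEP arrays 3 and 4 alone, 19 of the 23 called members stayed called in the same direction. With NEP arrays 1 and 2 alone, 22 did.

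Mismatch repair genes were lower in NEP in 4 of 5 cases, with a median difference of -0.9997. Exo1, the exonuclease, had signals of 7.18, 7.12, 6.85 and 7.07 on the NEP tumor arrays, 6.31, 6.57, 6.59 and 6.20 on GNP tumor, 5.37, 5.30, 6.60 and 6.39 on NEP, 7.32, 7.00, 7.08 and 7.47 on GNP and 7.33, 7.31 and 7.17 on NSC. The NEP arrays fell into a low pair (1 and 2) and a higher pair (3 and 4) that reached the GNP tumor range, and all 4 lay below every GNP and NSC array. The Exo1 difference, NEP minus GNP, was -1.31 (SE 0.23, limma adjusted p = 9.1e-05), which is 2.47-fold lower, and it was -0.73 with NEP arrays 3 and 4 alone.

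Msh6, which binds single mispairs, gave 8.70, 8.55, 8.77 and 8.65 on NEP tumor, 8.31, 8.35, 8.30 and 8.12 on GNP tumor, 7.69, 7.68, 8.26 and 8.27 on NEP, 8.86, 8.77, 8.84 and 8.84 on GNP and 8.92, 8.89 and 8.81 on NSC. The same NEP pair was lowest, and NEP and GNP did not overlap. The difference was -0.86 (SE 0.12, adjusted p = 7.41e-06), or -0.57 with NEP arrays 3 and 4 alone. Msh3, which favours larger loops, gave 6.68, 6.28, 6.37 and 6.27 on NEP tumor, 6.37, 6.35, 6.22 and 6.23 on GNP tumor, 5.65, 5.58, 5.93 and 6.02 on NEP, 7.02, 6.95, 6.77 and 6.44 on GNP and 6.44, 6.41 and 6.13 on NSC. By group mean NEP was lowest and GNP highest, with both tumors between them, and no NEP array reached another group. The Msh3 difference was -0.9997 (SE 0.13, adjusted p = 4.6e-06), -0.82 with NEP arrays 3 and 4 alone, and -0.31 when its 4 probe sets were averaged. Its unused probe sets averaged at most 2.27 in any group, where the lowest array median was 2.44.

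Pms2, a mismatch repair nuclease, gave 5.86, 5.94, 5.52 and 5.69 on NEP tumor, 5.61, 5.77, 5.57 and 5.79 on GNP tumor, 4.94, 4.70, 5.004 and 4.73 on NEP, 5.91, 6.14, 5.87 and 5.73 on GNP and 5.49, 5.36 and 5.55 on NSC. Every NEP array was below every other array, and here NEP arrays 1 and 2 did not stand apart from 3 and 4. The difference was -1.07 (SE 0.11, adjusted p = 1.74e-07). It was -1.05 with NEP arrays 3 and 4 alone and -0.64 as the mean of its 3 probe sets. Mlh3, a nuclease of the same family, was not called, at -0.22 (adjusted p = 0.118).

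Of the nucleotide excision genes, 4 of 11 tested (36.4%) were lower in NEP than in GNP, near the 39.9% of all genes, none was higher (limma, 0 also at an unadjusted p under 0.05), and the median difference was -0.22. Those lower were Ercc1, part of an incision nuclease, Ercc3, a helicase of the TFIIH complex, Ercc8, which acts at stalled transcription, and Rad23b, the partner of the damage sensor Xpc. Their differences ran from -0.36 for Ercc3 to -0.50 for Ercc8. Ercc8 was no longer called with NEP arrays 3 and 4 alone, at -0.25, while Ercc1 (-0.29), Ercc3 (-0.38) and Rad23b (-0.33) stayed called. Xpa, Xpc, the helicase Ercc2, the nucleases Ercc4 and Ercc5, and the damaged-DNA binding pair Ddb1 and Ddb2 were not called, with differences from -0.22 for Xpa to 0.39 for Ddb2. Ercc6, the partner of Ercc8 at stalled transcription, was below the array median on 18 of the 19 arrays and was not tested.

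Of the 9 glycosylases tested, 4 (44.4%) were lower in NEP than in GNP and 2 (22.2%) were higher. Over all genes 39.9% were lower and 29.6% higher, so such a split was not particular to the glycosylases. Ung, Mutyh, Neil3 and Mbd4 were lower, and Smug1 and Mpg were higher. Ogg1, Neil1 and Nthl1, all glycosylases for oxidised bases, were not called, at 0.03, 0.08 and 0.12. Neil3, which acts on oxidised bases and on crosslinks in replicating cells, gave 6.37, 6.37, 6.61 and 6.62 on NEP tumor, 6.62, 6.67, 6.78 and 6.67 on GNP tumor, 5.65, 5.48, 5.58 and 6.18 on NEP, 6.76, 7.20, 6.88 and 7.03 on GNP and 6.66, 6.42 and 6.76 on NSC. No NEP array reached any other array. The Neil3 difference was -1.24 (SE 0.13, adjusted p = 4.47e-07), which is 2.36-fold lower, or -1.08 with NEP arrays 3 and 4 alone.

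Ung, the main uracil glycosylase, gave 8.31, 8.05, 8.07 and 8.04 on NEP tumor, 7.81, 7.97, 7.999 and 7.72 on GNP tumor, 6.69, 6.89, 7.32 and 7.33 on NEP, 8.02, 7.45, 8.01 and 8.05 on GNP and 8.28, 8.27 and 8.21 on NSC. NEP was lowest, and GNP array 2 lay far below the other GNP arrays. The difference was -0.82 (SE 0.15, adjusted p = 0.000113), or -0.56 with NEP arrays 3 and 4 alone. Smug1, which also removes uracil, was higher in NEP, by 0.56 (SE 0.12, adjusted p = 0.0005), or 0.62 on NEP arrays 3 and 4 alone, with NEP signals from 5.63 to 5.98 and GNP signals from 5.07 to 5.51. Mpg, which removes alkylated bases, was higher by 0.55 (SE 0.18, adjusted p = 0.0114), with NEP from 4.497 to 5.50 overlapping GNP from 4.14 to 4.69. The Mpg difference was 0.36 without NEP array 1 and 0.25, not called, with NEP arrays 3 and 4 alone. When only NEP and GNP were fitted, Mpg was not called either (adjusted p = 0.0596). The other Mpg probe sets, dimmer and not tested singly, gave 0.12 and 0.06.

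Mbd4, which removes thymine or uracil from deaminated CpG sites, gave 7.30, 7.20, 6.44 and 6.96 on NEP tumor, 6.58, 6.39, 6.47 and 6.31 on GNP tumor, 4.69, 4.90, 5.10 and 5.44 on NEP, 5.77, 5.44, 6.02 and 5.83 on GNP and 6.17, 5.82 and 6.28 on NSC. NEP array 4 was level with GNP array 2, and both tumors lay above every progenitor array. The difference between NEP and GNP was -0.73 (SE 0.18, adjusted p = 0.00214), or -0.49 (adjusted p = 0.0492) with NEP arrays 3 and 4 alone. Mutyh, which removes adenine paired with oxidised guanine, was lower by a difference of -0.71 (SE 0.12, adjusted p = 5.15e-05), which was -0.45 for NEP arrays 3 and 4 alone.

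Of the 6 core genes that complete base excision and single-strand break repair, 5 were lower in NEP than in GNP, with a median difference of -0.56. That is 83.3% of them, against 39.9% of all genes. Xrcc1, the scaffold that gathers the others at a break, gave 6.81, 6.95, 6.20 and 6.59 on NEP tumor, 6.41, 6.42, 6.18 and 6.38 on GNP tumor, 5.89, 5.49, 5.97 and 6.03 on NEP, 6.54, 6.86, 6.64 and 6.71 on GNP and 6.61, 6.83 and 6.97 on NSC. All NEP arrays lay below all others. The Xrcc1 difference was -0.84 (SE 0.15, adjusted p = 8.05e-05), or -0.69 with NEP arrays 3 and 4 alone. Apex1, the endonuclease that cuts at the empty site, and Polb, the gap-filling polymerase, differed by -0.63 each, Parp2 by -0.49 and Parp1 by -0.42, these last 2 being the break sensors that make poly(ADP-ribose). With NEP arrays 3 and 4 alone Apex1 was -0.51, Polb -0.38, Parp2 -0.39 and Parp1 -0.50, all called. Lig3, the ligase bound by Xrcc1, was not called, at -0.07 (95% interval -0.23 to 0.08).

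In end joining, 3 of 7 genes (42.9%) were lower in NEP than in GNP, near the 39.9% of all genes. Another 1 (14.3%) was higher, against 29.6% of all genes, and the Ku subunits differed from each other. Xrcc5, the larger subunit of Ku, gave 7.70, 7.54, 7.70 and 7.79 on NEP tumor, 7.39, 7.46, 7.54 and 7.30 on GNP tumor, 6.23, 6.29, 6.79 and 6.70 on NEP, 7.93, 7.59, 7.69 and 7.65 on GNP and 7.79, 7.68 and 7.73 on NSC. Every NEP array lay below every other array, and its difference was -1.21 (SE 0.12, adjusted p = 9.02e-08), which is 2.32-fold lower, or -0.97 with NEP arrays 3 and 4 alone. Xrcc6, the smaller subunit, gave 6.68, 6.55, 6.99 and 6.93 on NEP and 6.68, 6.76, 6.58 and 6.64 on GNP. These overlapped, with a difference of 0.13 (95% interval -0.11 to 0.36, adjusted p = 0.321). NEP arrays 3 and 4 lay above every GNP array, and with these alone Xrcc6 was higher in NEP by 0.30 (SE 0.12, adjusted p = 0.0402). The within-array gap, Xrcc5 minus Xrcc6, differed by -1.34 on average, NEP minus GNP, a description with no test because the pair was picked for its difference.

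Of the other end-joining genes, Nhej1, a stimulator of the ligase, and Trp53bp1, which protects broken ends from resection, were lower in NEP than in GNP at -0.27 and -0.39. Xrcc4, the ligase partner, was higher at 0.44 (SE 0.16, adjusted p = 0.0191). Lig4, the ligase, and Prkdc, the kinase that Ku recruits, were not called, at -0.17 and 0.16. These 3 calls were weak in that each was lost with some choice of arrays. Xrcc4 was 0.27 without GNP array 2, 0.38 without NEP array 2 and 0.34 without NEP array 4, none of them called. Nor was Xrcc4 called when only NEP and GNP were fitted (limma adjusted p = 0.0963). With NEP arrays 3 and 4 alone it was 0.54 and called. Nhej1 was -0.23 and not called without GNP array 2, while Trp53bp1 kept its call when any 1 array was left out (-0.49 to -0.29). Neither Nhej1 (-0.22) nor Trp53bp1 (-0.17) was called with NEP arrays 3 and 4 alone, and Trp53bp1 was -0.13 as the mean of its 6 probe sets. Its 3 brightest probe sets gave -0.39, -0.73 and -0.50, and the dim ones, near or below the array medians, gave 0.52, -0.04 and 0.39. Mgmt, which reverses guanine alkylation directly, was below the array median on all 19 arrays and was not tested.

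**Figure D2:**
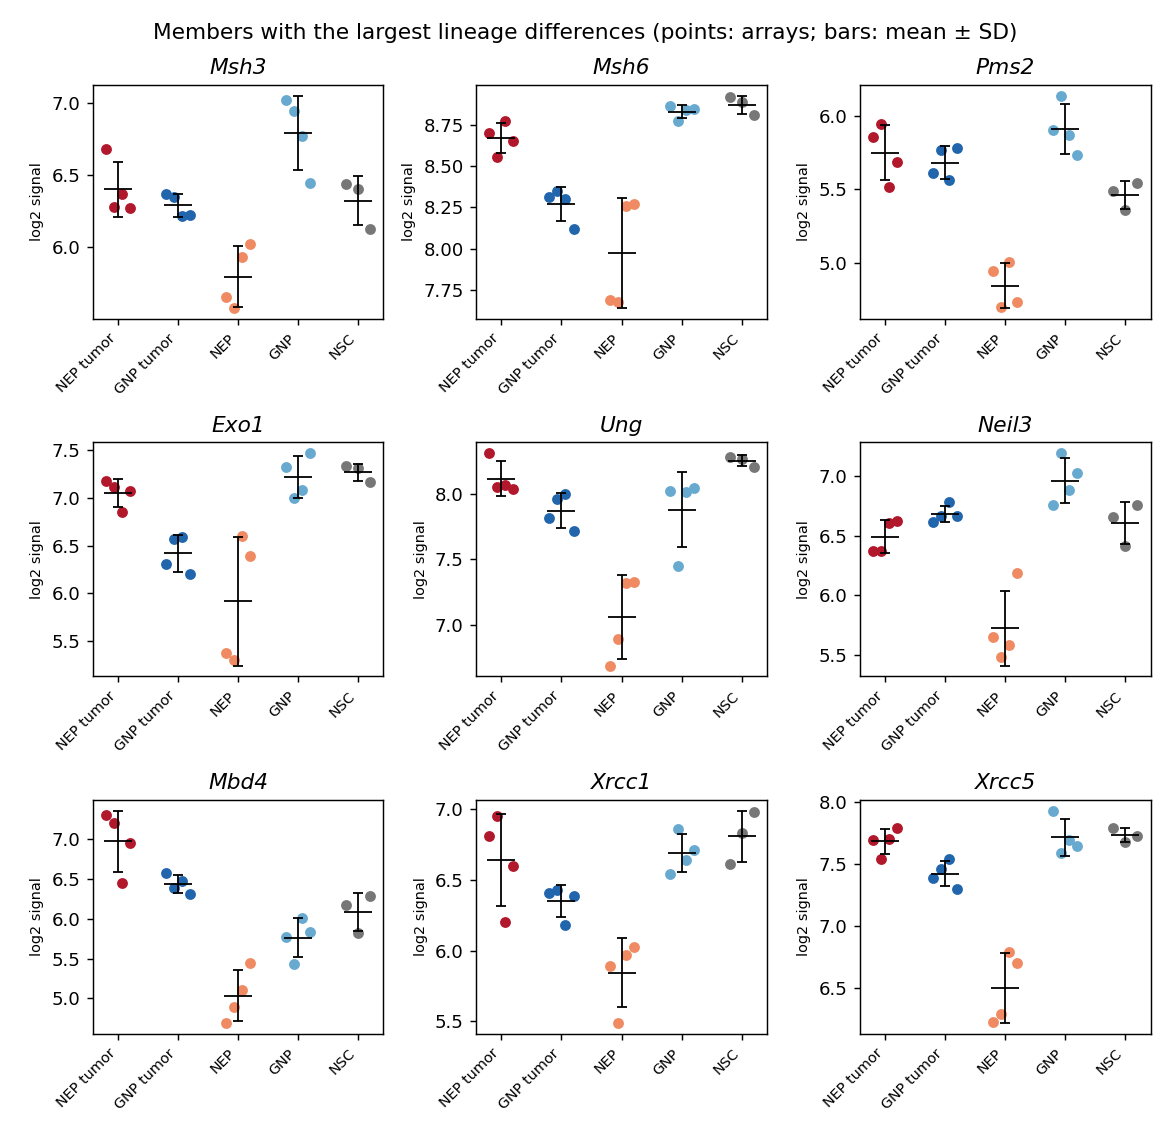
Log2 signal (y axis, own scale in each panel) of 9 members by group, with a point for each array and bars for mean ± SD. They had a called difference of at least 1 between progenitors, between tumors or in the tumor difference less the progenitor difference, or opposing calls in progenitors and tumors. The 4 NEP arrays are the lowest group in all panels, and in Exo1, Msh6 and Xrcc5 they form 2 pairs.

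NEP tumor against GNP tumor, also within 1 title series, asks whether tumors keep a difference by origin. Of the 38 members, 3 were higher in NEP tumor, 1 was lower and 34 were not called, with a median difference of 0.11 where that of all genes was 0.05. In the background 23.6% of genes were called, 15.5% higher and 8.1% lower, against 10.5% of the members. The 3 higher were Msh6 at 0.40 (SE 0.12, adjusted p = 0.022), Mbd4 at 0.54 (SE 0.18, adjusted p = 0.0438) and Xpa, which verifies lesions for excision, at 0.40 (SE 0.11, adjusted p = 0.0132). Msh6 signals did not overlap between the tumors, while NEP tumor array 3 overlapped GNP tumor for Mbd4 and for Xpa.

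The 1 member lower in NEP tumor was Ercc5, the other incision nuclease, at -0.35 (SE 0.11, adjusted p = 0.0334). Its signals were 6.28, 6.32, 6.10 and 6.13 on NEP tumor and 6.39, 6.74, 6.53 and 6.55 on GNP tumor, which did not overlap. Exo1 differed by 0.64 (95% interval 0.15 to 1.12, adjusted p = 0.0542) and Xrcc5 by 0.26 (95% interval 0.02 to 0.50, adjusted p = 0.116), neither called. The other 2 Exo1 probe sets, not tested singly, were also higher in NEP tumor, by 1.27 and 0.87. For the last of these GNP tumor averaged 1.75, below the array medians. No core base excision gene was called by limma (0 also at an unadjusted p under 0.05), and no end-joining gene was (2 higher and 1 lower at an unadjusted p under 0.05). This holds for the brightest probe set of each gene. For Polb that probe set gave 0.11, and its others, not tested singly, gave 0.39, -1.40 and -0.90. The within-array gap of Xrcc5 and Xrcc6 differed by 0.33 on average, NEP tumor minus GNP tumor, again with no test.

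Of the 4 tumor calls, 3 depended on single arrays. Msh6 was not called without GNP tumor array 4 (0.35) or NEP tumor array 3 (0.36). Ercc5 was not called without NEP tumor arrays 3 or 4 or GNP tumor arrays 2, 3 or 4 in turn (-0.36 to -0.29), and Mbd4 without any array in turn other than NEP tumor array 3 (0.43 to 0.59). Mbd4 also lost its call with no filter on dim probe sets (0.54), after a second quantile normalization (0.45) and as the mean of its 3 probe sets (0.34). With NEP tumor arrays 3 and 4 alone only Ercc5 of the 4 calls stayed, and with arrays 1 and 2 alone 2 did. Xpa kept its call when any 1 array was left out, but not with NEP tumor arrays 3 and 4 alone (0.26) or as the mean of its 3 probe sets (0.12).

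**Figure D3:**
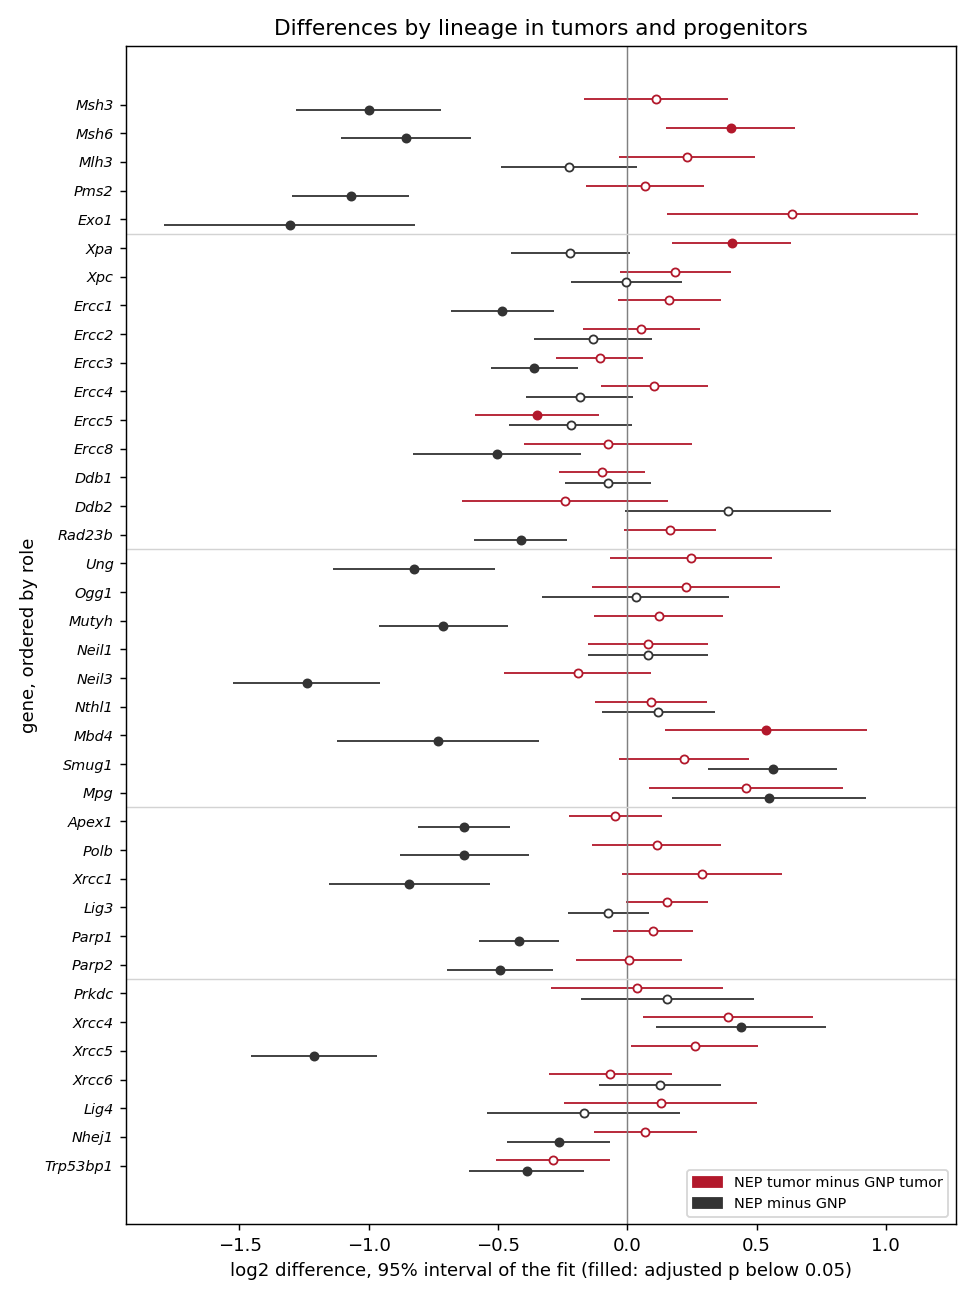
Log2 differences (x axis) for the 38 tested members, ordered by role down the page, with NEP tumor minus GNP tumor in red above NEP minus GNP in dark grey, and bars for the 95% interval of the fit. Filled points passed an adjusted p of 0.05: 4 members in the tumors and 23 in the progenitors.

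The difference of the differences, NEP tumor minus GNP tumor less NEP minus GNP, asks whether the lineage gap is the same in tumors and progenitors. A shift of a gene that is equal in both groups of a title series drops out of it. It was positive for 19 of 38 members, negative for 1 and not called for 18, against 61.9% of all genes called, 36.7% positive and 25.2% negative. The median was 0.38, and 0.15 over all genes. All 5 mismatch repair genes were positive, with Exo1 at 1.94 (SE 0.33, adjusted p = 8.18e-05), Msh6 at 1.26, Pms2 at 1.14 and Msh3 at 1.11. Of the base excision core, 5 of 6 were positive, Xrcc1 the most at 1.13 (SE 0.21, adjusted p = 0.000195).

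Among the glycosylases 4 of 9 (44.4%) were positive, against 36.7% of all genes, with Mbd4 at 1.27 and Ung at 1.07. Smug1 and Mpg, the 2 that were higher in NEP, were not called at -0.34 and -0.09. Xrcc5 reached 1.47 (SE 0.16, adjusted p = 9.99e-07), whereas Xrcc6 was -0.19 (95% interval -0.53 to 0.14) and not called. Of the 11 nucleotide excision genes tested 3 (27.3%) were positive, Xpa, Ercc1 and Rad23b. Ddb2, the ultraviolet damage sensor, was the only negative one at -0.63 (adjusted p = 0.0492). Leaving out each of the 16 arrays in turn, Ddb2 kept its call only without NEP arrays 1 or 3 or GNP array 4, and Nhej1 only without NEP tumor array 3, GNP tumor array 4, NEP array 3 or GNP array 4. Mlh3 lost its call without NEP tumor arrays 3 or 4, GNP tumor arrays 2 or 4, NEP array 2 or GNP arrays 1, 3 or 4 (0.37 to 0.45), and the other 17 kept theirs under each omission. With the mean of all probe sets Msh3 was 0.18, Xpa 0.10, Rad23b 0.23 and Polb 0.10, none called, and Pms2 was 0.57 and Neil3 0.61, both called. With NEP arrays 3 and 4 alone 18 of the 20 stayed called in the same direction, Exo1 at 1.36, Xrcc5 at 1.23 and Msh6 at 0.97.

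The comparison of each tumor with its own progenitor shows both sides of that contrast, with the title series as well as the group changing, and it shares arrays with the comparisons above. In NEP tumor against NEP, 18 members were higher, 5 lower and 15 not called, with a median of 0.27 against 0.05 for all genes. Of all genes 68.9% were called, 36.2% higher and 32.6% lower. The largest increases were Mbd4 at 1.94 (SE 0.18, adjusted p = 8.37e-08), which is 3.85-fold, then Xrcc5 at 1.18, Exo1 at 1.14, Ung at 1.06, Pms2 at 0.91, Xrcc1 at 0.79, Neil3 at 0.77 and Apex1 at 0.74. The 5 lower were Mpg at -1.86, Smug1 at -1.11, Prkdc at -0.37, Ddb1 at -0.31 and Lig3 at -0.20. With NEP arrays 3 and 4 alone 21 of the 23 calls stayed, and Ogg1 (0.22) and Trp53bp1 (0.06) were lost.

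In GNP tumor against GNP, 3 members were higher, 15 lower and 20 not called, with a median of -0.23 against -0.08 for all genes. Of all genes 49.8% were called, 18.5% higher and 31.4% lower. The 3 higher were Mbd4 at 0.67, Neil1 at 0.46 and Xpc at 0.26. The 8 largest decreases were Mpg at -1.77, Exo1 at -0.80, Smug1 at -0.77, Mutyh at -0.58, Parp1 at -0.57, Msh6 at -0.56, Msh3 at -0.51 and Nhej1 at -0.46. Nhej1 averaged 2.47 in GNP tumor, near the array medians of 2.44 to 2.57, so its size and rank are only approximate. Set side by side, NEP tumor minus NEP and GNP tumor minus GNP, Mbd4 was 1.94 and 0.67, Mpg -1.86 and -1.77, Smug1 -1.11 and -0.77, Xrcc5 1.18 and -0.29, and Ung 1.06 and -0.01.

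Mpg signals were 3.22, 3.16, 2.92 and 2.99 on NEP tumor and 2.49, 2.92, 2.39 and 2.66 on GNP tumor, where 2 arrays lay below the array median. All 8 lay below every NEP, GNP and NSC array, of which the lowest was 4.14. A dimmer Mpg probe set, not tested singly, fell less. It averaged 3.09 in NEP and 2.65 in NEP tumor, and 2.97 in GNP and 2.58 in GNP tumor. The dimmest averaged at most 2.16 in any group, below the array medians. In NEP tumor against NEP, Lig3 was not called without NEP array 3 (-0.14), nor Ogg1 without NEP array 2 (0.39) or NEP tumor array 2 (0.40). Trp53bp1 lost its call without NEP arrays 1 or 2 or NEP tumor arrays 1 or 3 in turn (0.18 to 0.26), and Prkdc kept its call only without NEP array 2 or NEP tumor array 3. In GNP tumor against GNP, Ercc2 was not called without GNP array 2 (-0.28), Xpc without GNP arrays 2 or 4 or GNP tumor arrays 1, 2 or 3 in turn (0.17 to 0.28), and Xrcc5 kept its call only without GNP array 2 or GNP tumor array 3. The mean of all probe sets turned the sign of Xpa (-0.04), Lig3 (0.02) and Trp53bp1 (-0.11) in NEP tumor against NEP, and of Msh3 (0.02), Rad23b (0.23) and Trp53bp1 (-0.50) in GNP tumor against GNP.

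NSC arrays lie in the other title series, so what follows compares series as well as groups. In NEP against NSC 6 members were higher, 13 lower and 19 not called, with 58.4% of all genes called, 30.9% higher and 27.6% lower. The largest decreases were Exo1 at -1.36, Xrcc5 at -1.23, Ung at -1.20, Mbd4 at -1.06, Xrcc1 at -0.96, Msh6 at -0.90, Neil3 at -0.89 and Rad23b at -0.65. The 6 higher were Smug1 at 0.96, Ddb2 at 0.78, Mpg at 0.49, Neil1 at 0.46, Xpc at 0.26 and Parp1 at 0.20. With NEP arrays 3 and 4 alone 14 of the 19 calls stayed, and Msh3 (-0.35), Xpc (0.19), Ercc3 (-0.24), Mpg (0.19) and Parp1 (0.11) were lost.

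In GNP against NSC 13 members were higher and 0 were lower (limma, 2 lower at an unadjusted p under 0.05), with 36.3% of all genes called, 23.2% higher and 13.1% lower. The largest increases were Ercc8 at 0.72, Parp1 at 0.61, Lig4 at 0.58, Mutyh at 0.57, Msh3 at 0.47, Polb at 0.45, Pms2 at 0.45 and Apex1 at 0.41. Both comparisons share the 3 NSC arrays. Their titles number only NSC array 6, and NSC arrays 1 and 2 are numbered here by their order in the series. In NEP against NSC, Xpc kept its call only without NEP array 4 or NSC array 2, Mpg only without NEP arrays 3 or 4, and Ercc3 only without NEP array 2. Parp1 lost its call without NEP arrays 1 or 2 or NSC arrays 1 or 6 (0.16 to 0.19), and Mpg was 0.30 without NEP array 1. In GNP against NSC, Msh3 was not called without GNP array 1 (0.40) or NSC array 6 (0.37), nor Lig4 without GNP array 4 (0.46), NSC array 1 (0.61) or NSC array 2 (0.53), nor Smug1 without GNP array 2 (0.32) or NSC array 1 (0.28). Ercc2 and Parp2 lost their calls without GNP arrays 2 or 4 or NSC arrays 1 or 2, Ercc2 also without NSC array 6, and Neil1 without GNP arrays 1 or 4 or NSC arrays 1 or 6. As the mean of its probe sets, Parp1 was -0.04 in NEP, and Msh3 was -0.01, Pms2 0.13 and Polb 0.19 in GNP, none called.

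**Figure D4:**
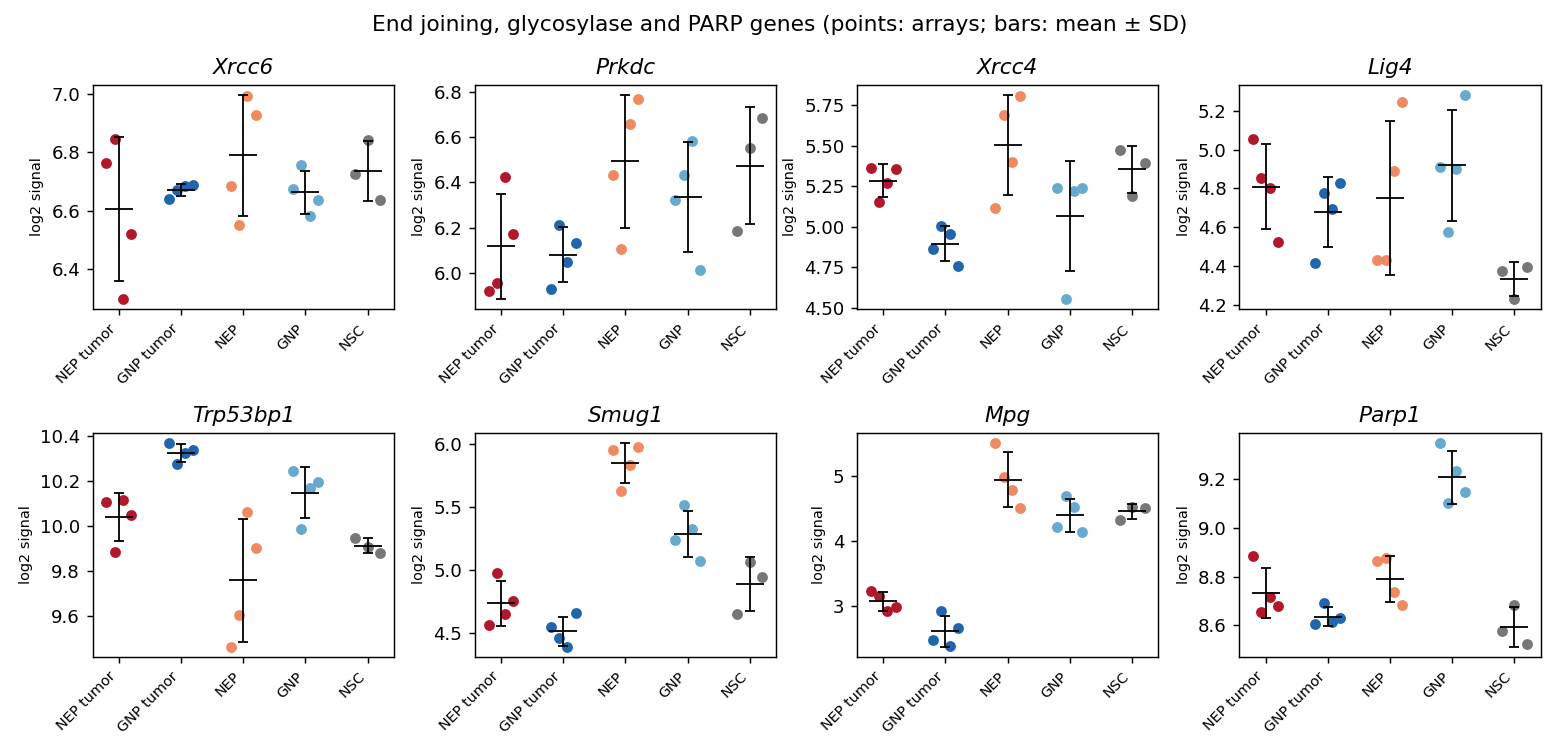
Log2 signal (y axis, own scale in each panel) of 8 further members by group, with a point for each array and bars for mean ± SD. By group mean, Smug1 and Mpg are lowest in both tumors and highest in NEP, and Parp1 is highest on the GNP arrays.

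Other repair genes were examined as a companion list. Of 46 other tested genes of the same pathways, 34 (73.9%) were lower and 2 (4.3%) higher in NEP than in GNP, with a median of -0.55. Over all genes 39.9% were lower and 29.6% higher. In the difference of differences 32 (69.6%) were positive and 1 (2.2%) negative, against 36.7% and 25.2% of all genes. Rfc1 and Rfc5, subunits of the clamp loader, fell most in NEP at -1.10 and -1.02, while Pold4, a small subunit of polymerase delta, was higher at 0.99 and Polk, a lesion-bypass polymerase, at 0.31. Proliferation genes were lower as well: all 22 tested were lower in NEP than in GNP, with a median of -0.78, E2f2 at -2.07 and E2f1 at -1.94. In NEP tumor against GNP tumor 1 proliferation gene was higher and 1 lower (4.5% each), against 15.5% and 8.1% of all genes. In the difference of differences 20 (90.9%) were positive. In NEP tumor against NEP 21 (95.5%) were higher, against 36.2% of all genes. In GNP tumor against GNP 5 (22.7%) were lower, against 31.4% of all genes. The part of proliferation, of microglia or of other cells in the repair gene differences was not tested.

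**Figure D5:**
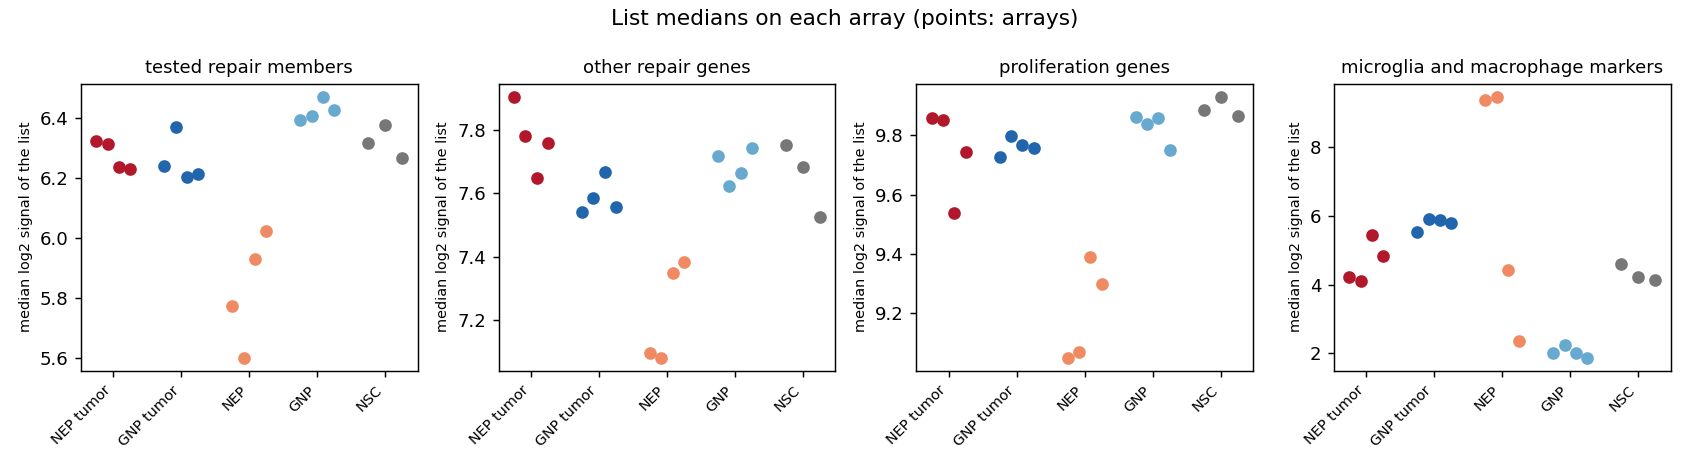
Median log2 signal (y axis) of 4 gene lists on each array (points), by group. The tested repair members, other repair genes and proliferation genes are lowest on the NEP arrays, and the microglia and macrophage markers are highest on NEP arrays 1 and 2.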

How the data were processed

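RNA of 19 arrays was read on Affymetrix Mouse430+2 arrays. The authors deposited log2 signals per probe set. The submitters' processing notes name RMA and the Affymetrix Expression Console, with versions not given in the sources used here. All arrays share the same mean signal, 3.79, and what set it is not given in the sources used here. On the hybridisation spike-ins, Cre (100 pM) minus BioB (1.5 pM) was 5.52, against 6.06 on a log2 scale and 4.20 on a natural log scale.

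Of 45101 probe sets, 64 were controls, 34945 carried 1 symbol and were used, and 932 with several symbols and 9160 with none were left out. A gene was represented by its brightest probe set on average, and genes at or above the array median on at least 3 arrays were tested. Of the 38 members tested, 36 passed on all arrays, Mpg on 17 and Nhej1 on 13, and 0 passed through only 1 group. Group means were fitted with limma 3.58.1 in R 4.3.3 on all arrays (lmFit and eBayes), with Benjamini-Hochberg adjustment over 12148 genes and calls at an adjusted p under 0.05. In each comparison the called members with the 8 largest differences in each direction are named, and those opposite to the majority. Values on each array are given for members called with a difference of at least 1 between progenitors, between tumors or in the difference of differences, or called in opposite directions in progenitors and tumors. The fit was tested on simulated data. Poly-A spike-ins averaged 8.94 ± 0.23 (SD, n = 8) in the first title series and 6.83 ± 0.29 (SD, n = 11) in the second. Alternatives were the filter, the mean of all probe sets, a second quantile normalization, a variance trend, only the groups compared, a replicate block, pairs of arrays and leaving out each array. Members and lists were chosen with earlier results of these data known.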

Additional observations from a re-analysis of the deposited data

Results flagged for a closer look

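Of 152 checks of groups of 4 arrays, 6 found an array far from the other 3, where chance gives about 1 in 20. Ercc2 on NEP array 1 was low at 3.76, against 4.12 to 4.17 on the other NEP arrays. GNP array 2 was low for Ung, at 7.45 with the nearest GNP array at 8.01, and for Xrcc4, at 4.55 with the nearest at 5.22. Ung on NEP tumor array 1 was high at 8.31, with the nearest at 8.07. Xrcc1 on GNP tumor array 3 was low at 6.18, with the nearest at 6.38. Nhej1 on NEP array 3 was high at 2.80, with the nearest at 2.62.

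The lineage difference in tumors differed from that in progenitors for 20 members (limma, log2 difference of differences). That is 52.6% of those tested, against 61.9% of all genes, so such a flag was no more frequent among the members. In mismatch repair it was 1.11 for Msh3, 1.26 for Msh6, 0.45 for Mlh3, 1.14 for Pms2 and 1.94 for Exo1. In nucleotide excision repair it was 0.62 for Xpa, 0.64 for Ercc1, 0.58 for Rad23b and -0.63 for Ddb2. Among the glycosylases it was 1.07 for Ung, 0.83 for Mutyh, 1.05 for Neil3 and 1.27 for Mbd4. In the base excision core it was 0.59 for Apex1, 0.74 for Polb, 1.13 for Xrcc1, 0.52 for Parp1 and 0.50 for Parp2. In end joining it was 1.47 for Xrcc5 and 0.34 for Nhej1.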

How the results depend on the processing

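Counts of members called moved by more than 1.5 times as follows, and the cause was not tested. Higher in NEP than in GNP fell to 1 with a filter at the 75th percentile, with only the groups compared and with a replicate block. Higher in NEP than in NSC was 2 with that filter and 3 with only the groups compared. GNP against NSC gave 7 higher with the filter, and 1 lower with the filter, the mean of all probe sets, a variance trend or only the groups compared, and 2 lower after a second quantile normalization. NEP tumor against GNP tumor gave 5 higher with the mean of all probe sets or the block, 7 with only the groups compared and 0 with NEP tumor arrays 3 and 4 alone, and 2 lower with the filter, the mean, the quantile step, the trend, only the groups compared or the block, and 0 with NEP tumor arrays 1 and 2 alone. Lower in NEP tumor than in NEP was 3 with only the groups compared or NEP arrays 1 and 2 alone and 2 with the block. GNP tumor against GNP gave 1 higher and 9 lower with the filter, which tests fewer members, and 5 higher with the mean. The negative difference of differences was 0 with no filter, the filter, the trend, only the groups compared, NEP arrays 1 and 2 alone or NEP tumor arrays 1 and 2 alone.

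Leaving out each array in turn gave, for NEP against GNP, 2 to 4 higher and 20 to 21 lower, for the tumors 1 to 3 higher and 0 to 1 lower, for the difference of differences 17 to 20 positive and 0 to 1 negative, for NEP tumor against NEP 16 to 20 higher and 3 to 6 lower, for GNP tumor against GNP 2 to 3 higher and 14 to 16 lower, for NEP against NSC 3 to 6 higher and 12 to 15 lower, and for GNP against NSC 8 to 13 higher and 0 to 1 lower. Among differences called in either fit, the mean of all probe sets reversed Xpa (0.21) and Parp1 (-0.040) in NEP against NSC, Msh3 (-0.014) and Ercc4 (0.17) in GNP against NSC, Polb (-0.45) between the tumors, Xpa (-0.042), Lig3 (0.024) and Trp53bp1 (-0.11) in NEP tumor against NEP, and Msh3 (0.015), Rad23b (0.23) and Trp53bp1 (-0.50) in GNP tumor against GNP. Other sign changes under it were of differences called in neither fit. This mean gives dim probe sets the same weight as bright ones.

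Same-numbered arrays did not deviate together (correlations of deviations -0.16 to 0.07 between NEP and GNP, -0.04 to 0.05 between the tumors). Not every array correlated best with its own number. Whether the numbers pair the arrays cannot be decided in this way, because differences in cell content between arrays of a group can hide a pairing. With the replicate block, 17 members were lower and 1 higher in NEP than in GNP, where the main fit gave 20 and 3. The number of arrays limits precision, and dim probe sets such as Nhej1 and Mpg carry little signal over background.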

Other observations

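Other repair genes held their own changes in the tumors. Pole4, an accessory subunit of polymerase epsilon, was higher in NEP tumor than in NEP at 1.77 (SE 0.12, limma adjusted p = 1.15e-09) and higher in GNP tumor than in GNP at 0.85 (SE 0.12, adjusted p = 2e-05), across the title series. Between the tumors, which share a series, Pole2, a further subunit of that polymerase, was higher in NEP tumor at 0.74 (SE 0.10, adjusted p = 6.01e-05), and Uvssa, a factor of transcription-coupled repair, was lower at -0.39 (SE 0.12, adjusted p = 0.0225). Polm, an end-joining polymerase, was lower in GNP tumor than in GNP at -0.99 and higher in GNP than in NSC at 0.74.

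The median SD of the 38 tested members was 0.14 in NEP tumor, 0.11 in GNP tumor, 0.22 in NEP, 0.17 in GNP and 0.098 in NSC (log2). Over all tested genes it was 0.15, 0.10, 0.21, 0.15 and 0.097 in the same groups, so the members varied about as much as genes at large.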
